A study of Mus musculus with 136 samples.

Results

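Mouse macrophages labelled Nfkbiz-/- were set against wild-type macrophages after 2 h of lipid A, gene by gene, in RNA attached to chromatin. The genes described are those with an RPKM (reads scaled by gene length and by the reads of the library) of 1 or more in 2 or more of the 4 libraries at 2 h: 2855 of the 15196 genes in the table. The cells were macrophages grown from bone marrow for 6 days in M-CSF, the growth factor that drives macrophage development, and lipid A is the part of bacterial endotoxin that activates the receptor TLR4. Nfkbiz-/- cells given lipid A for 2 h have 2 libraries, and wild-type cells (C57) of the same series given lipid A for 2 h have 2 libraries. The same 2 genotypes at 0 (unstimulated), 0.5, 1 and 6 h, with 2 libraries each, were used to estimate the spread and to follow the genes over time. Nfkb1-/-, Bcl3-/- and Nfkbid-/- macrophages at 2 h of lipid A, each beside wild type of its own series, served for comparison, as did whole-cell RNA of macrophages overexpressing IkBz. The study has 136 libraries in all and asks how the p50 subunit of NF-kB and the nuclear IkB proteins shape macrophage activation. The labels name no floxed allele, Cre or cell-type-restricted deletion, and they do not say whether the replicates came from separate mice, so that p-values measure the spread between these libraries.

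Nfkbiz encodes IkBz, a member of the IkB family that sits in the nucleus rather than holding NF-kB in the cytoplasm. It is itself made in response to TLR4 signals, binds the p50 subunit on DNA and is known for its part in the induction of a set of secondary response genes in macrophages, among them Lcn2, Il6 and Il12b. RNA attached to chromatin is mostly RNA in the course of transcription, so that it follows the activity of genes more closely than the RNA of whole cells. Nfkbiz itself, and also Tnf, Il6 and Il12b, were not analysed here, so the genotype was taken from the labels and was not checked at the deleted gene.

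Depth, recovered from the step between values, was 28.8 and 27.2 M reads (megareads) in the Nfkbiz-/- libraries and 27.1 and 29.5 M reads in the wild-type libraries, and 24.8 to 34.9 M over all 20 libraries of the series. The Y-linked genes Ddx3y and Kdm5d were at or under 0.00221 RPKM in the 10 libraries numbered 1 and at 0.334 to 2.35 RPKM in the 10 libraries numbered 2, in both genotypes alike, so that each genotype has 1 library with and 1 without RNA of these genes. Of 8 measured macrophage markers, 6 reached 1 RPKM in a library, with sums of 40.8 and 61.0 RPKM in Nfkbiz-/- libraries and 45.5 and 65.3 RPKM in wild type. Fcgr1, an Fc receptor of macrophages, had 26.0 and 22.4 RPKM in Nfkbiz-/- against 26.7 and 22.9 RPKM in wild type, while Cx3cr1 stayed under 0.2 RPKM in all 4 libraries. Mertk, a receptor for the uptake of dying cells, had 5.41 and 8.23 RPKM in Nfkbiz-/- against 2.22 and 4.02 RPKM in wild type, and Cd14, a co-receptor of TLR4, had 5.55 and 20.8 RPKM against 11.5 and 29.1 RPKM. Neither was called (1.03 and -0.73, adjusted p from limma 0.158 and 0.686). No marker of neutrophils, dendritic cells, lymphocytes, mast cells and basophils, red cells or stromal cells reached 1 RPKM, and their summed levels were at most 0.604 RPKM in Nfkbiz-/- and 0.704 RPKM in wild type. In the Nfkbid series the libraries numbered 1 stood apart at 2 h. Malat1, a nuclear RNA, had 10.6 RPKM in replicate 1 of Nfkbid-/- and 823 and 1256 RPKM in replicates 2 and 3, against 7.37 RPKM in replicate 1 of wild type and 872 and 1130 RPKM in replicates 2 and 3. The main comparisons of knockouts that rest on these libraries are given with and without them. The set of induced genes used below also rests on wild-type libraries of this kind and is given only with them. In libraries of bulk cells, fewer cells of a type and less RNA per cell cannot be told apart.

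Differences are given on the scale log2(RPKM + 0.5), Nfkbiz-/- minus wild type, with the standard error, and a gene was called lower or higher at a difference of at least 1 (2-fold) and a Benjamini-Hochberg adjusted p from limma under 0.05 over 4885 fitted genes. On this scale the change of a gene under about 1 RPKM is understated. Of the 2855 genes 54 were called lower (1.89%) and 9 higher (0.315%). Over all 4885 fitted genes 58 were lower (1.19%) and 9 higher (0.184%), since Lcn2, Rac3, Ergic1 and Mir34a were called lower without reaching 1 RPKM in 2 of the 4 libraries. Without Nfkbiz-/- replicate 1 or wild-type replicate 1, 36 and 31 were lower, and without Nfkbiz-/- replicate 2 or wild-type replicate 1, 3 and 3 were higher. The 4 libraries at 2 h alone gave 22 lower and 2 higher genes, a fit of all 4 knockout series 6 and 1 (26 and 4 without the 10 Nfkbid libraries numbered 1), and the replicate number as a term at each time 85 and 14. The median difference was -0.07 over the 2855 genes and -0.09 over the fitted genes. Of the 54 lower genes 25 reached 1 RPKM in the wild-type libraries and in neither Nfkbiz-/- library, so they entered through the group in which they were high, and 24 reached it in all 4 libraries. At the edge of the rule, Cramp1l, Cox7b and Nipsnap3b were just inside with a second-highest value of 1.00 RPKM, and Madd, Ticam2 and Ddx21 were just outside with 0.9998, 0.9994 and 0.9992 RPKM. None of these 6 was called.

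**Figure D1:**
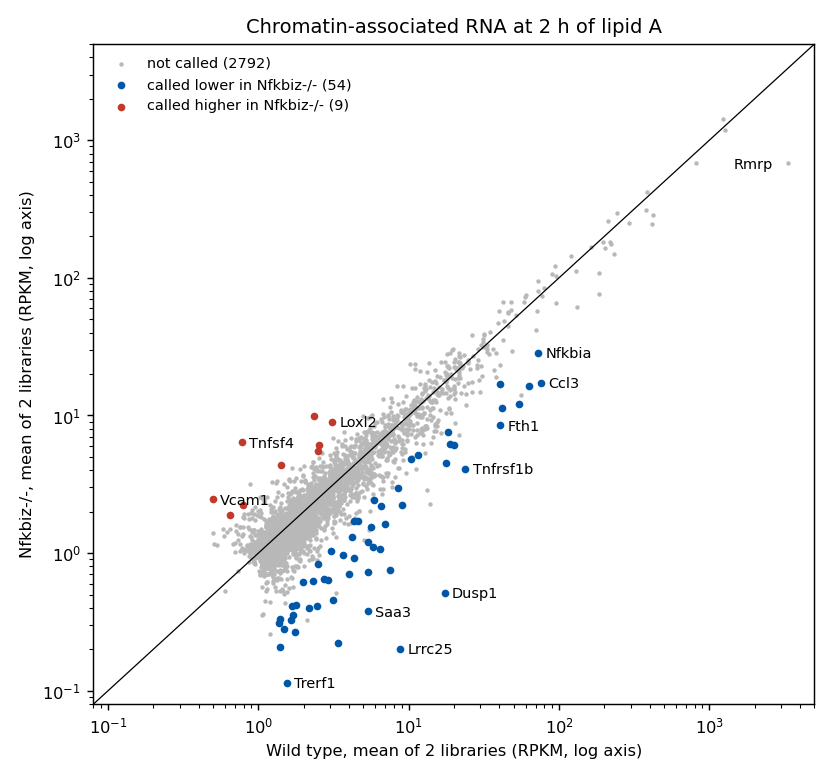
Mean RPKM of the 2 Nfkbiz-/- libraries (vertical) against the mean of the 2 wild-type libraries (horizontal) at 2 h of lipid A, both on log axes, for 2855 genes, with 54 called lower in blue, 9 called higher in red and the line of equal values in black. Most genes lie along the line across the range of levels, and Lrrc25 and Dusp1, whose wild-type means are 43.6 and 33.8 times the Nfkbiz-/- means, lie furthest below it.

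Before the values, the stretches around the start of some of the lower genes are shown, because the files and the promoter table allow a look at which of them hold the letters that NF-kB binds. Promoters of 300 bases (250 before and 50 after the start) came from RefSeq in build GRCm38.p6, and 42 of the 58 lower genes had one. Genes were counted as induced if, in wild types of the other 3 series, they lay 5-fold or more above 0 h at 2 h. The NF-kB consensus was found on either strand in 4 of 9 lower genes that lipid A induces (44.4%), in 3 of 33 other lower genes (9.09%), in 10.1% of the 69 promoters of induced genes that were not called and in 4.35% of 27025 promoters. Those 4 are given here with the match in capitals.
Tnip3, chr6:65590148-65590447, plus strand: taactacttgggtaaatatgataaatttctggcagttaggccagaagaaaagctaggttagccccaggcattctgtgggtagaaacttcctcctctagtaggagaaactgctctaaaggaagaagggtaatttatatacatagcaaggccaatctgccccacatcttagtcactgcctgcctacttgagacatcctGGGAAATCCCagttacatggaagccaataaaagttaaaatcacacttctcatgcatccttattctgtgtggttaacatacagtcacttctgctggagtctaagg
Ebi3, chr17:55952373-55952672, plus strand: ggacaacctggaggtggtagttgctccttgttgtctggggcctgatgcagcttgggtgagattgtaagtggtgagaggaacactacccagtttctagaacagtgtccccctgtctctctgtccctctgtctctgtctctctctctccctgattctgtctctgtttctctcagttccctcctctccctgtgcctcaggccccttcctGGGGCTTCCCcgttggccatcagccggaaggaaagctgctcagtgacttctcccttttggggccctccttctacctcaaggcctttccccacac
Nfkbia, chr12:55492598-55492897, minus strand: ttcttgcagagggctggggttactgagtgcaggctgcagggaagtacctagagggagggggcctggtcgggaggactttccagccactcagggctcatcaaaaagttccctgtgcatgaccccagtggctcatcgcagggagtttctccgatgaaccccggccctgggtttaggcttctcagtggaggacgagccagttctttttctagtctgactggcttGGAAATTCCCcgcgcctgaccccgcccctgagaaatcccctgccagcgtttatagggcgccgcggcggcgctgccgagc
Fcgr4, chr1:171018676-171018975, plus strand: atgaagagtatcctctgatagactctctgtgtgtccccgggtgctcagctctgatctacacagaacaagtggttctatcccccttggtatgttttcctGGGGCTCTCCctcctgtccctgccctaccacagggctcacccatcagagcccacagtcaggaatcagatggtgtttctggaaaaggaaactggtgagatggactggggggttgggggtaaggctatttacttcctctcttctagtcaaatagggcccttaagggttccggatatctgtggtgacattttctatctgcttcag
The matches begin 54 bases upstream of the start in Tnip3, 44 in Ebi3, 29 in Nfkbia and 152 in Fcgr4. The promoters of Dusp1 and Saa3, among the genes with the largest falls, held no match to that consensus in this window. They held other motifs, again in capitals: the CRE letters TGACGTNA in Dusp1, and the interferon-response motif (ISRE) followed by the C/EBP letters TTGCNNAA, read on the other strand, in Saa3.
Dusp1, chr17:26508423-26508722, minus strand: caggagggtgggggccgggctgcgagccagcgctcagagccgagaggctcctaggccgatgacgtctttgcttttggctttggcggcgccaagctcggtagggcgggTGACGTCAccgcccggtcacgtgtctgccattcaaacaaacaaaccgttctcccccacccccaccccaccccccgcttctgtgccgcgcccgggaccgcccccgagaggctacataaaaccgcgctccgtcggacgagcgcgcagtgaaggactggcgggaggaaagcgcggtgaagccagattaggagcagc
Saa3, chr7:46715627-46715926, minus strand: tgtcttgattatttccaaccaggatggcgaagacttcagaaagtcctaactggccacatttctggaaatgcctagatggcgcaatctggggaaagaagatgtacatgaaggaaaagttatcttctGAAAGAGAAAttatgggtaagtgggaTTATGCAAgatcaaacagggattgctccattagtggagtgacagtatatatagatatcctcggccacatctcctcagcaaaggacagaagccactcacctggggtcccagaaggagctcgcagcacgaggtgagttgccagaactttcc
These motifs do not overlap each other in the 2 promoters. CRE letters were in 4.76% of lower, 1.45% of induced but not called and 3.08% of all promoters, ISRE letters in 14.3%, 20.3% and 3.49%, and C/EBP letters in 11.9%, 10.1% and 10.8%. For the AP-1 letters TGANTCA the shares were 2.38%, 17.4% and 7.93%, for the SRF CArG box 2.38%, 1.45% and 1.57%, and for the TATA box letters TATAAA 23.8%, 23.2% and 14.2%. In the 2003 promoters of the 2855 genes the shares were 5.94% for CRE, 5.09% for ISRE and 7.89% for C/EBP letters. They were 5.49% for AP-1, 1.3% for the CArG box, 8.04% for the TATA box and 5.49% for the NF-kB consensus. Of the 9 higher genes 5 had a promoter, and 1 of them, Arl5b, held the NF-kB consensus. A match is a description of the letters and not a site of binding.

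The largest falls were in genes with unrelated jobs. Dusp1 encodes a phosphatase that switches off the p38 and JNK MAP kinases (chromosome 17, 26642535 to 26645417 in mm9, the build of the deposited table, as for all positions of genes from here on). It had 0.567 and 0.460 RPKM in Nfkbiz-/- libraries against 19.8 and 14.9 RPKM in wild type, a fall of -4.13 ± 0.29 (adjusted p from limma 4.0e-06). Lrrc25, a leucine-rich repeat membrane protein of myeloid cells (chromosome 8, 73140742 to 73144749), had 0.182 and 0.221 RPKM in Nfkbiz-/- against 9.11 and 8.45 RPKM in wild type (-3.73 ± 0.25; adjusted p 4.0e-06). In Lrrc25 the wild-type mean was 43.6 times the Nfkbiz-/- mean, and in Dusp1 33.8 times. In a fit of all 4 knockout series Dusp1 and Lrrc25 were not called (adjusted p from limma 0.0925 and 0.429), and in the same fit without the 10 Nfkbid libraries numbered 1 both were (6.6e-05 and 1.7e-08).

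Other large falls involved an acute-phase protein, a GTPase, a TNF receptor and a protease. Saa3, the serum amyloid A of mouse macrophages, had 0.246 and 0.511 RPKM in Nfkbiz-/- against 3.70 and 6.96 RPKM in wild type (-2.69 ± 0.25; adjusted p from limma 6.3e-05). Rac2, the blood-cell GTPase that the phagocyte oxidase needs, had 0.666 and 0.847 RPKM against 8.27 and 6.78 RPKM in wild type (-2.67 ± 0.28). Tnfrsf1b, the TNF receptor TNFR2, had 4.20 and 4.04 RPKM in Nfkbiz-/- against 25.1 and 22.6 RPKM in wild type (-2.40 ± 0.22). The replicates of a genotype were close in Rac2 and Tnfrsf1b and further apart in Saa3, and in none of these genes did the genotypes overlap. Adamts4, a secreted protease that cuts aggrecan, had 0.246 and 0.20 RPKM in Nfkbiz-/- against 4.30 and 2.46 RPKM in wild type (-2.38 ± 0.25). Batf, a bZIP transcription factor, had 0.871 and 0.591 RPKM in Nfkbiz-/- against 5.96 and 4.84 RPKM in wild type (-2.26 ± 0.24). Both genes, like Saa3 and Rac2, stayed under 1 RPKM in both knockout libraries.

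Fth1, the heavy chain of the iron store ferritin, had 5.86 and 11.1 RPKM in Nfkbiz-/- against 39.7 and 41.3 RPKM in wild type (-2.26 ± 0.47; adjusted p from limma 0.0186). The higher knockout library lay well below both wild-type libraries, but the call was lost without Nfkbiz-/- replicate 1 (-1.83), wild-type replicate 1 (-2.29) or wild-type replicate 2 (-2.23). Serp1, a small protein of the endoplasmic reticulum whose span overlaps that of Eif2a, fell by 2.17, Pltp, a phospholipid transfer protein whose span overlaps Ctsa, fell by 1.99, and Cpd, a carboxypeptidase of the Golgi, fell by 1.92. Reads over the shared part of overlapping genes cannot be assigned to one of them. Clec4a1, a lectin receptor of myeloid cells, fell by 1.91, a call lost without Nfkbiz-/- replicate 2 (-1.61) or wild-type replicate 1 (-1.68).

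**Figure D2:**
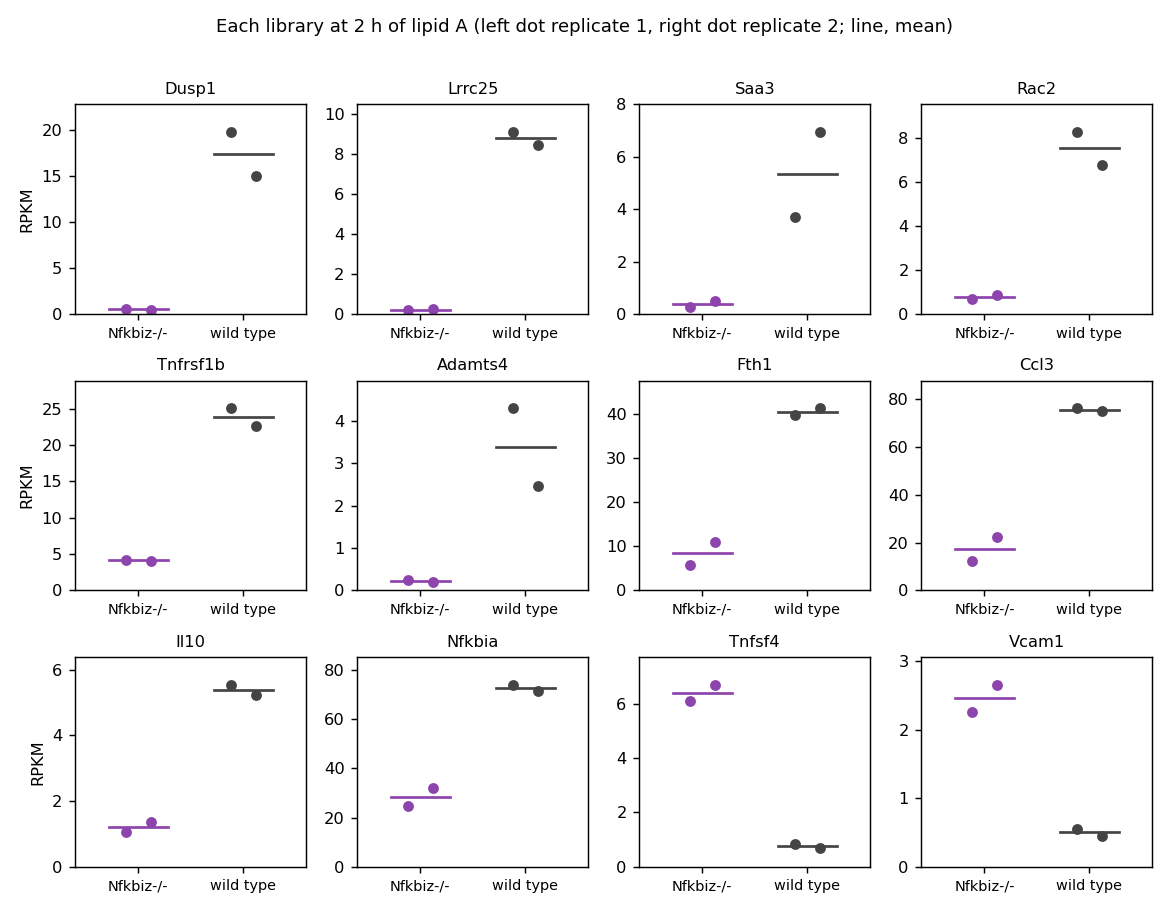
RPKM of 12 genes in each library at 2 h of lipid A (linear axes from 0), with Nfkbiz-/- in purple left of wild type in grey and a line at the mean of the 2 libraries. In 10 of the genes both knockout libraries lie below both wild-type libraries, and in Tnfsf4 and Vcam1 both lie above them.

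Chemokines, the secreted proteins that attract leukocytes, divided. Of 9 CC chemokines and their relatives that were measured, 3 were lower and none higher, with a median of -0.65 against -0.07 over all 2855 genes. Ccl3, which attracts monocytes and lymphocytes, had 12.1 and 22.3 RPKM in Nfkbiz-/- against 76.1 and 75.0 RPKM in wild type (-2.16 ± 0.40; adjusted p from limma 0.0082). Ccl7 had 8.21 and 16.2 RPKM in Nfkbiz-/- against 54.4 and 54.8 RPKM in wild type (-2.19 ± 0.47; adjusted p 0.0202), and Ccl2, the main attractant of monocytes, had 9.52 and 23.0 RPKM against 67.3 and 59.7 RPKM (-2.06 ± 0.52; adjusted p 0.0491). In all 3 genes both knockout libraries lay below both wild-type libraries, and Nfkbiz-/- replicate 2 lay above replicate 1. The calls of the 3 were lost without Nfkbiz-/- replicate 1 (Ccl3 -1.74, Ccl7 -1.72, Ccl2 -1.44) and without wild-type replicate 1 (-2.15, -2.20 and -1.97), and those of Ccl7 and Ccl2 also without wild-type replicate 2 (-2.19 and -2.14). Ccl2 and Ccl7, neighbours 8.26 kb apart on chromosome 11, already differed by -1.84 and -1.61 before lipid A, where neither was called.

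The most abundant chemokines were not called. Cxcl10 had 148 and 205 RPKM in Nfkbiz-/- against 227 and 217 RPKM in wild type (-0.35 ± 0.29), and Ccl5 had 175 and 191 RPKM in Nfkbiz-/- against 214 and 180 RPKM in wild type (-0.10 ± 0.42). Ccl4, whose protein acts on the same receptor as that of Ccl3, had 50.7 and 72.6 RPKM against 128 and 134 RPKM in wild type (-1.10 ± 0.39; adjusted p from limma 0.176), and it was called lower where the replicate number was a term of the fit (0.0142 over the series and 0.0369 at each time). None of the 6 CXC chemokines passed. Their differences ran from -1.78 in Cxcl1, a neutrophil attractant with 0.501 and 2.01 RPKM in Nfkbiz-/- against 4.01 and 6.12 RPKM in wild type (adjusted p 0.0586), to 1.17 in Cxcl9, a T cell attractant with 16.9 and 30.6 RPKM against 7.58 and 12.7 RPKM (adjusted p 0.142). In both genes the genotypes did not overlap, in opposite directions. Over the 2855 genes both knockout libraries lay below both wild-type libraries in 35.4% and above them in 22.8%.

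Among 8 cytokines and growth factors 3 were lower and none higher, with a median of -0.65. Il10, which dampens macrophage activation, had 1.07 and 1.35 RPKM in Nfkbiz-/- against 5.54 and 5.21 RPKM in wild type (-1.78 ± 0.25; adjusted p from limma 0.0014). Ebi3, a subunit that IL-27 and IL-35 share, had 6.22 and 6.29 RPKM against 20.3 and 17.4 RPKM in wild type (-1.52 ± 0.33; adjusted p 0.0236). Edn1, which encodes endothelin 1, had 0.603 and 1.35 RPKM in Nfkbiz-/- against 2.24 and 5.09 RPKM in wild type (-1.45 ± 0.32; adjusted p 0.0253). The genotypes did not overlap in these genes. The call of Ebi3 was lost when any 1 of the 4 libraries was left out (-1.41 to -1.63), and that of Edn1 without Nfkbiz-/- replicate 1 (-1.08) or wild-type replicate 2 (-0.94). Il1b, the inflammatory cytokine IL-1 beta, had 2.62 and 1.94 RPKM in Nfkbiz-/- against 17.95 and 9.60 RPKM in wild type (-2.31 ± 0.65; adjusted p 0.0756), and was called lower with the replicate number as a term (0.0042 over the series, 0.0022 at each time). Il27, which encodes the other subunit of IL-27, had 118 and 123 RPKM in Nfkbiz-/- against 84.9 and 102 RPKM in wild type (0.38 ± 0.27; adjusted p 0.546).

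Genes named in earlier work as needing IkBz formed a list of 10, of which 4 were among the 2855 genes and all 4 were lower: Ccl2, Ebi3, Edn1 and Cebpd. The list was written with earlier results of these data known, so its count is no independent evidence. Cebpd, a C/EBP transcription factor whose span overlaps Spidr, had 0.277 and 0.554 RPKM in Nfkbiz-/- against 2.5 and 2.37 RPKM in wild type (-1.70 ± 0.21; adjusted p from limma 0.00042). Lcn2, the antibacterial protein that captures iron-laden siderophores, reached only 0.0224 and 0.0831 RPKM in Nfkbiz-/- against 0.702 and 0.832 RPKM in wild type (-1.20 ± 0.12; adjusted p 7.5e-05). That is 2 and 7 reads against 59 and 76 reads, so the level of the knockout libraries is set by few reads. Csf2, the other gene of that list that was fitted, had at most 0.0420 RPKM in Nfkbiz-/- and 0.103 RPKM in wild type.

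Feedback genes of the NF-kB and MAP kinase pathways were partly lower. Nfkbia, which encodes the inhibitor IkBa and is itself switched on by NF-kB, had 24.9 and 32.2 RPKM in Nfkbiz-/- against 74.0 and 71.6 RPKM in wild type (-1.35 ± 0.21; adjusted p from limma 0.0032), a call lost without Nfkbiz-/- replicate 1 (-1.16, adjusted p 0.0573). Tnip3, which binds the NF-kB inhibitor A20, had 12.8 and 10.1 RPKM in Nfkbiz-/- against 47.0 and 36.6 RPKM in wild type (-1.83 ± 0.35; adjusted p 0.0097), lost without Nfkbiz-/- replicate 2 (-1.66) or wild-type replicate 1 (-1.65). They were 2 of 9 primary response and feedback genes, a list with a median of -0.63 and no member higher. Icam1 of that list, an adhesion molecule, had 66.6 and 82.5 RPKM in Nfkbiz-/- against 55.8 and 65.0 RPKM in wild type (0.30 ± 0.18), so that list members at similar levels lay on either side of wild type. Gadd45b, a stress sensor, missed the 2-fold bound at -0.99 ± 0.21 (adjusted p 0.0194). Of the MAP kinase phosphatases Dusp2 fell with Dusp1, at 4.96 and 4.03 RPKM in Nfkbiz-/- against 20.5 and 14.9 RPKM in wild type (-1.85 ± 0.33), a call lost without Nfkbiz-/- replicate 2 (-1.72) or wild-type replicate 1 (-1.63), whereas Dusp5 had 1.29 and 1.13 RPKM against 1.18 and 0.721 RPKM (0.25 ± 0.38).

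The NF-kB subunits in the table did not pass. Nfkb1, the gene of p50, had 9.71 and 9.71 RPKM in Nfkbiz-/- against 12.3 and 11.6 RPKM in wild type (-0.28 ± 0.25), Rel, the gene of c-Rel, had 11.4 and 11.4 against 15.3 and 13.1 RPKM (-0.30 ± 0.24), and Rela, the gene of p65, had 6.77 and 7.68 against 5.29 and 6.55 RPKM (0.27 ± 0.19). Bcl3, another nuclear IkB, had 7.41 and 5.21 RPKM in Nfkbiz-/- against 12.7 and 9.48 RPKM in wild type (-0.77 ± 0.33; adjusted p from limma 0.269). None of 10 TLR4 signalling components was called (median -0.10, from -0.73 to 0.48), nor any of 8 other pattern receptors (median -0.47). Among the immunoregulatory genes, which dampen inflammation, 4 of 13 were lower (Il10, Ebi3, Dusp1 and Batf; median -0.43), while Acod1, the maker of itaconate, had 163 and 171 RPKM in Nfkbiz-/- against 168 and 160 RPKM in wild type.

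None of the 24 measured genes of the interferon-stimulated list was called (median 0.14, from -0.35 to 1.17 in Cxcl9, and a smallest adjusted p of 0.142 in limma). Rsad2, which encodes the antiviral protein viperin, had 381 and 455 RPKM in Nfkbiz-/- against 377 and 393 RPKM in wild type (0.11 ± 0.36), and Ifit1 had 81.5 and 79.2 RPKM against 80.3 and 64.4 RPKM (0.16 ± 0.22). The genotypes overlapped in both genes. Ifitm2, an interferon-induced transmembrane protein that was not in that list, was called lower, with 2.20 and 2.23 RPKM in Nfkbiz-/- against 6.41 and 6.65 RPKM in wild type (-1.37 ± 0.13; adjusted p 6.3e-05). None of the 7 immediate-early genes, the first transcription factors made after a signal, was called. All 7 lay below 0 (median -0.46, lowest -1.10 in Ier3 with an adjusted p of 0.0536 in limma), as did 1684 of the 2855 genes. In the other lists the lower genes were Hpgds among 5 lipid mediator enzymes, Tnfrsf1b among 17 cytokine and TNF receptors, Adamts4 among 13 protease, matrix and adhesion genes, Saa3 and Fth1 among 12 antimicrobial and iron genes, and Serp1 among 10 genes of the unfolded protein response. The call of Hpgds was lost when any 1 of the 4 libraries was left out (-1.12 to -1.25). Cebpd and Batf were lower among 6 other inducible transcription factors, and no gene was called among 2 heat-shock, 2 proliferation and 22 oxidative phosphorylation genes. Snhg1, a host gene of small nucleolar RNAs whose span overlaps Snord22, was lower among 6 nuclear RNAs, with 4.50 and 5.86 RPKM in Nfkbiz-/- against 15.2 and 7.84 RPKM in wild type (-1.02 ± 0.25; adjusted p from limma 0.0445). Its call was lost without Nfkbiz-/- replicate 1 (-0.85), Nfkbiz-/- replicate 2 (-1.19) or wild-type replicate 1 (-0.56), and with the replicate number as a term at each time (adjusted p 0.0572).

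**Figure D3:**
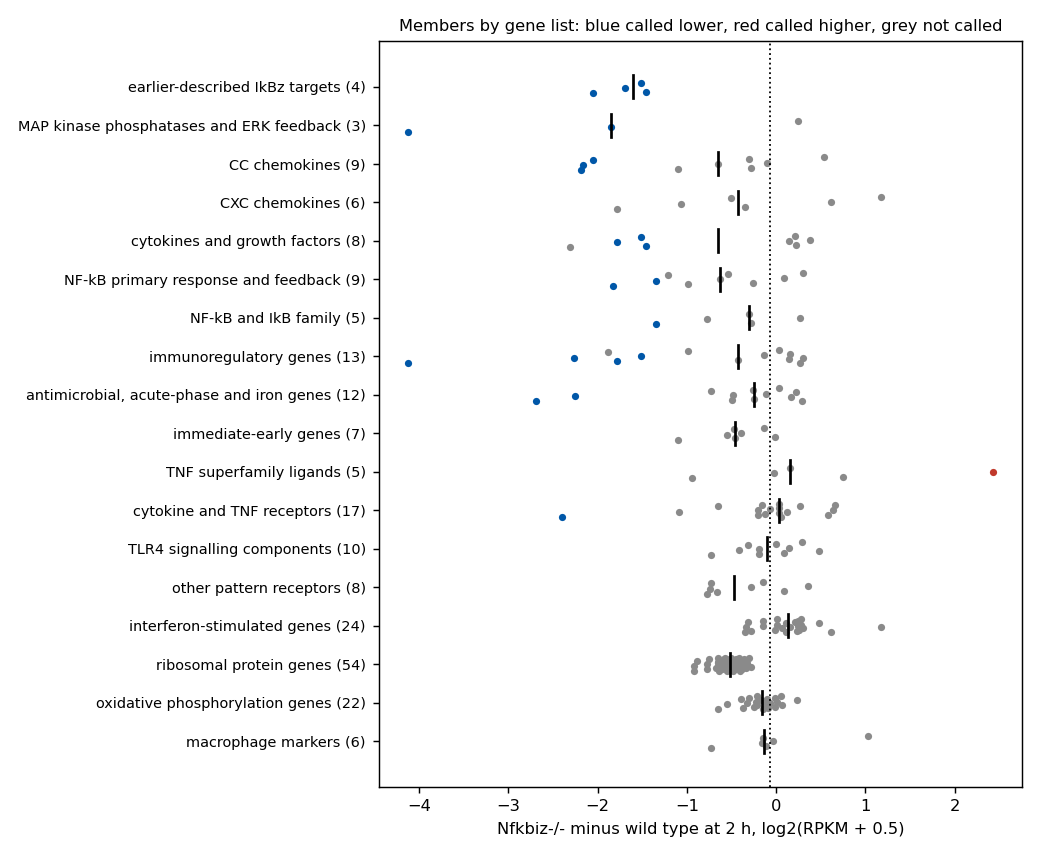
Difference between Nfkbiz-/- and wild type at 2 h, log2(RPKM + 0.5), for each gene of 18 lists (number of genes in brackets), with lower genes in blue, higher genes in red, genes that were not called in grey, list medians as black bars and the median of all 2855 genes (-0.07) as a dotted line. In some lists 1 or more genes lie 2-fold or more below 0, in others none does, and the 54 ribosomal protein genes lie together below 0.

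Ribosomal protein genes, which belong to no inflammatory program, lay below wild type as a block. Differences below 0 were found in 1684 of the 2855 genes and in all 54 of these (median -0.52, from -0.93 to -0.28), of which none was called. Their summed level was 89.3 and 118 RPKM in Nfkbiz-/- against 179 and 154 RPKM in wild type. The median of the same genes was already -0.36 at 0 h. Rmrp, a small RNA made by RNA polymerase III, had 328 and 1035 RPKM in Nfkbiz-/- against 2911 and 3724 RPKM in wild type (-2.5 ± 0.68; adjusted p from limma 0.0684, and 0.0129 and 0.0441 with the replicate number as a term, where it was called). At 0 h it had 998 and 657 RPKM in Nfkbiz-/- against 1880 and 5318 RPKM in wild type. The nuclear RNAs Malat1 and Neat1 were not called, Malat1 at 1553 and 1275 RPKM in Nfkbiz-/- against 1324 and 1143 RPKM in wild type. The values of a library summed to 20267 and 22758 RPKM in Nfkbiz-/- and 26276 and 25955 RPKM in wild type. Genes of 2 to 5 kb had a median of -0.28 (at 0 h -0.25) and genes over 100 kb one of 0.09 (at 0 h 0.03), and the shares called lower were 4.06% and 2.04%. The part of these differences in the calls was not tested. With each library centred on its median 54 genes were lower and 16 higher.

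Higher genes were fewer, 9 in all, and Tnfsf4 rose furthest. It encodes OX40 ligand, which costimulates T cells (chromosome 1, 163325568 to 163348337), and had 6.08 and 6.70 RPKM in Nfkbiz-/- against 0.845 and 0.708 RPKM in wild type (2.43 ± 0.28; adjusted p from limma 0.00027). Vcam1, an adhesion molecule that holds leukocytes, had 2.26 and 2.65 RPKM in Nfkbiz-/- against 0.556 and 0.445 RPKM in wild type (1.56 ± 0.29), a call lost without Nfkbiz-/- replicate 2 (1.46), wild-type replicate 1 (1.64) or wild-type replicate 2 (1.48). Loxl2, an enzyme that crosslinks collagen, had 10.4 and 7.69 RPKM against 2.56 and 3.65 RPKM in wild type (1.41 ± 0.26), lost without Nfkbiz-/- replicate 1 (1.20) or wild-type replicate 1 (1.18). The genotypes did not overlap in these genes, and in Tnfsf4 the call held with any 1 library left out.

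The other higher genes were Mir1907 (1.91), Pilra, an inhibitory receptor of myeloid cells (1.36), Cst7, the protease inhibitor cystatin F (1.13), Arl5b, a small GTPase of the ARF family (1.08), Pik3cb, the beta catalytic subunit of PI3 kinase (1.06), and Actn1, the actin crosslinker alpha-actinin 1 (1.03). Mir1907 rests on 21 and 29 reads in Nfkbiz-/- against 4 and 8 reads in wild type. Without 1 or more of the 4 libraries the call was lost in Mir1907 (1.65 without Nfkbiz-/- replicate 2, 1.55 without wild-type replicate 1), Pilra (1.28 without Nfkbiz-/- replicate 1, 1.43 without Nfkbiz-/- replicate 2, 1.17 without wild-type replicate 1), Pik3cb (0.997 without Nfkbiz-/- replicate 2, 0.92 without wild-type replicate 1), Actn1 (0.98 and 0.95 without the same libraries) and Arl5b (0.96 without Nfkbiz-/- replicate 2). Cst7 kept it in all 4. Among 5 TNF family ligands Tnfsf4 was the 1 called, while Tnfsf15 had 4.17 and 4.20 RPKM in Nfkbiz-/- against 8.28 and 8.78 RPKM in wild type (-0.95 ± 0.15; adjusted p from limma 0.0026, under the 2-fold bound) and Tnfsf9, the ligand 4-1BBL, had 13.2 and 13.5 RPKM against 14.1 and 12.9 RPKM.

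Of the called genes 2 are microRNA loci that were lower, Mirlet7i and Mir34a. Mirlet7i rests on 1 and 2 reads in Nfkbiz-/- against 7 and 7 in wild type, and Mir34a on 1 and 1 against 6 and 3. A count of 1 may stand for no read. The reads come from the loci on chromatin and not from mature microRNA. The arms with known regulatory targets are shown with the seed (bases 2 to 8) in capitals, as RefSeq gives them.
let-7i-5p, chromosome 10: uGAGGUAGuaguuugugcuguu
miR-34a-5p, chromosome 4: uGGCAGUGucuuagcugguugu
The 2 seeds differ, so the 2 loci share no seed family.

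Some lower genes lie near each other on a chromosome. The gaps given run from 1 called gene to the next, whatever genes lie between them. How often fitted genes in general lie this close was not tested. On chromosome 1 Fcgr2b (-1.79), Fcgr4 (-1.02), Fcer1g (-1.25) and Adamts4 follow each other among the called genes, with gaps of 42.9, 199.8 and 15.8 kb. Fcgr2b and Fcgr4 encode Fc receptors for IgG, and Fcer1g the gamma chain that some Fc receptors signal through. Fcer1g had 15.2 and 18.5 RPKM in Nfkbiz-/- against 39.0 and 42.4 RPKM in wild type, and its call was lost when any 1 of the 4 libraries was left out (-1.11 to -1.39). Rac2 and Cyth4 (-1.81), an exchange factor for ARF GTPases, lie 24.3 kb apart on chromosome 15, and Ccl3 and Wfdc17 (-1.60) lie 54.7 kb apart on chromosome 11. Fth1 and Best1 (-1.21) lie 0.06 kb apart on chromosome 19. Fcgr2b, Fcgr4, Cyth4, Wfdc17 and Best1 were named here after their values were seen, for their place near genes that the naming rule picked.

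Most genes that lipid A induces stood close to wild type in Nfkbiz-/- cells, and a minority were lower. Of 104 genes induced in wild types of the other series (2.48% of those tested), which share no library with this comparison, 13 were lower (12.5%) and none higher, against 1.19% and 0.184% of all fitted genes. The median difference of the 104 was 0.03. Of them 67 lay within 1.5-fold of wild type, 21 were 2-fold or more below and 1 was 2-fold or more above. Their median rise over 0 h was 3.05 in Nfkbiz-/- and 3.22 in wild type, on the log2 scale. The 13 lower genes were Dusp1, Saa3, Adamts4, Ccl7, Ccl3, Ccl2, Dusp2, Tnip3, Ebi3, Edn1, Lipg, Nfkbia and Fcgr4, of which Lipg encodes a secreted lipase. Saa3, for example, lay 0.65 above 0 h in Nfkbiz-/- and 3.34 above it in wild type, and Nfkbia 2.66 above it in Nfkbiz-/- and 3.85 in wild type.

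The remaining 45 lower genes were not in that induced set. In 12 of the 58 the wild type stayed within 2-fold of 0 h while Nfkbiz-/- lay 2-fold or more below it (20.7%), against 4.24% of the 4885 fitted genes. Since the genes were called on the 2 h difference, this count and those of the other courses below are descriptions. Lrrc25 had 4.81 and 5.52 RPKM at 0 h and 0.182 and 0.221 RPKM at 2 h in Nfkbiz-/-, against 6.63 and 6.00 RPKM at 0 h and 9.11 and 8.45 RPKM at 2 h in wild type. Rac2 had 4.58 and 4.50 RPKM at 0 h and 0.666 and 0.847 RPKM at 2 h in Nfkbiz-/-, against 5.82 and 4.17 RPKM at 0 h and 8.27 and 6.78 RPKM at 2 h in wild type. In these 2 genes chromatin RNA was lower at 2 h than at 0 h in the knockout and higher in wild type. In the other 10 (Fth1, Trerf1, Dcxr, Slc25a10, Hist2h4, Best1, Rnf149, Snord89, Sh3gl1 and Rac3) wild type lay below 0 h too, by less than 2-fold. Fth1 changed by -2.55 in Nfkbiz-/- and -0.56 in wild type, and Hist2h4 by -1.19 in Nfkbiz-/- and -0.93 in wild type. Hist2h4 rests on 6 and 3 reads in Nfkbiz-/- against 20 and 16 in wild type at 2 h, and Snord89 on 4 and 5 against 12 and 11. In 27 of the 58 the wild type lay 2-fold or more above 0 h (46.6%, against 10.9% of fitted genes and 18.2% of the 2855 genes). In 15 both genotypes lay within 2-fold of it (25.9%, against 58.1%), and in 4 (Pltp, Cyth4, Hpgds and P2ry6) the wild type lay 2-fold or more below it (6.90%, against 24.6%).

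**Figure D4:**
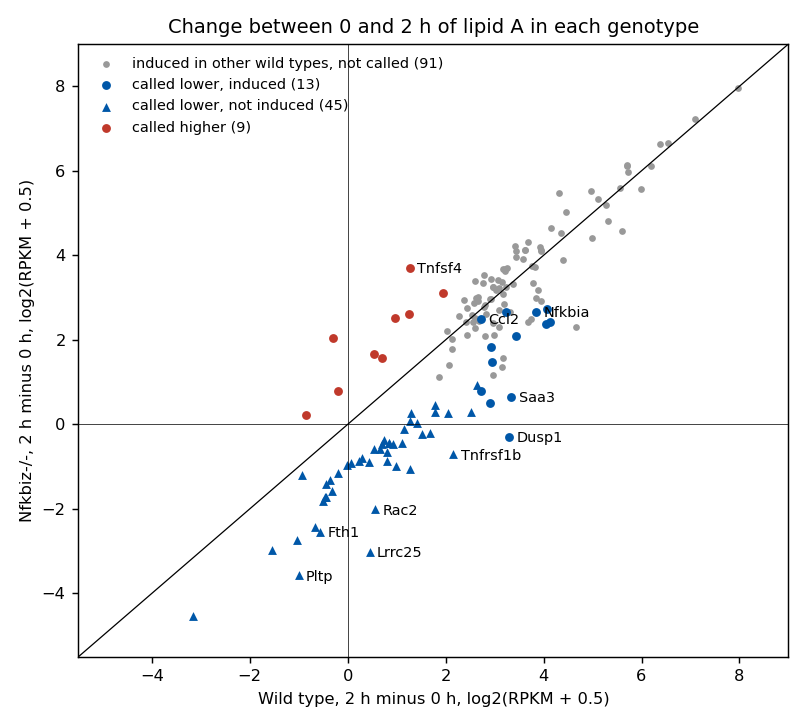
Change between 0 and 2 h of lipid A, log2(RPKM + 0.5), in Nfkbiz-/- (vertical) against wild type (horizontal), for 91 induced genes that were not called (grey), 13 lower induced genes (blue circles), 45 other lower genes (blue triangles) and 9 higher genes (red), with the line of equal change in black. Induced genes spread along the line, lower genes lie under it, and Lrrc25, Rac2 and Fth1 fall below 0 in Nfkbiz-/- alone or further than in wild type.

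Before lipid A limma called no gene (at an unadjusted p under 0.05 and 2-fold, 22 lay below wild type and 6 above). The 58 genes lower at 2 h had a median difference of -0.09 before lipid A and -0.14 at 0.5 h, which reached -0.78 by 1 h, -1.5 by 2 h and -1.32 by 6 h. Of them 8 were lower also at 1 and 6 h, 7 also at 1 h, 31 also at 6 h and 12 at 2 h alone, where 0.553% of fitted genes were lower at 1 h and 3.62% at 6 h. Of the 9 higher genes 2 were higher also at 1 h (0.123% of fitted genes) and 4 at 6 h (1.84%). A gene lower at 1 time and not at another is not thereby shown to differ between the times. The 2 h difference was tested against that at 0 h. At 2 h 24 genes were further below wild type (0.491%), 23 of them among the 58, and 4 further above (0.0819%), all among the 9. The 58 and 9 were called on the same 2 h libraries, so this overlap is no independent evidence. With the replicate number as a term of the fit the 24 and 4 became 50 and 8, or 55 and 13 with the term at each time. Leaving out 1 library gave 11 and 0 without either Nfkbiz-/- library, 14 and 1 without wild-type replicate 1, and 20 and 1 without wild-type replicate 2.

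Dusp1 shows where the genotypes part. At 0.5 h it had 63.7 and 67.1 RPKM in Nfkbiz-/- against 74.8 and 66.5 RPKM in wild type, and at 1 h 26.1 and 22.0 RPKM against 46.9 and 26.6 RPKM. At 6 h it had 3.91 and 2.31 RPKM in Nfkbiz-/- against 38.5 and 24.2 RPKM in wild type. The first peak was thus near wild type, and the later RNA was what the knockout lacked (2 h minus 0 h difference -3.59; adjusted p from limma 0.00098). Saa3 came later, with 1.39 and 1.72 RPKM in Nfkbiz-/- against 100.5 and 123 RPKM in wild type at 6 h (2 h minus 6 h difference 3.08).

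The difference at 2 h was lower than that at 6 h in 35 fitted genes (0.716%) and higher in 26 (0.532%). A higher difference can still lie below wild type, as in Saa3 (-2.69 at 2 h and -5.77 at 6 h). Among the 35 were genes of the 58 that were near or across wild type at 6 h. Adamts4, lower at 1 and 2 h, had 0.104 and 0.0737 RPKM in Nfkbiz-/- against 0.151 and 0.165 RPKM in wild type at 6 h, when the wild type had lost the RNA too. Il10 had 10.8 and 13.7 RPKM in Nfkbiz-/- against 6.09 and 5.49 RPKM in wild type at 6 h, the other way round from 2 h (2 h minus 6 h difference -2.80). Tnfsf4 had 3.78 and 2.17 RPKM in Nfkbiz-/- against 1.12 and 0.716 RPKM in wild type at 1 h, and 6.88 and 7.86 RPKM against 0.119 and 0.107 RPKM at 6 h, so that its RNA stayed high in the knockout while that of wild type went.

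**Figure D5:**
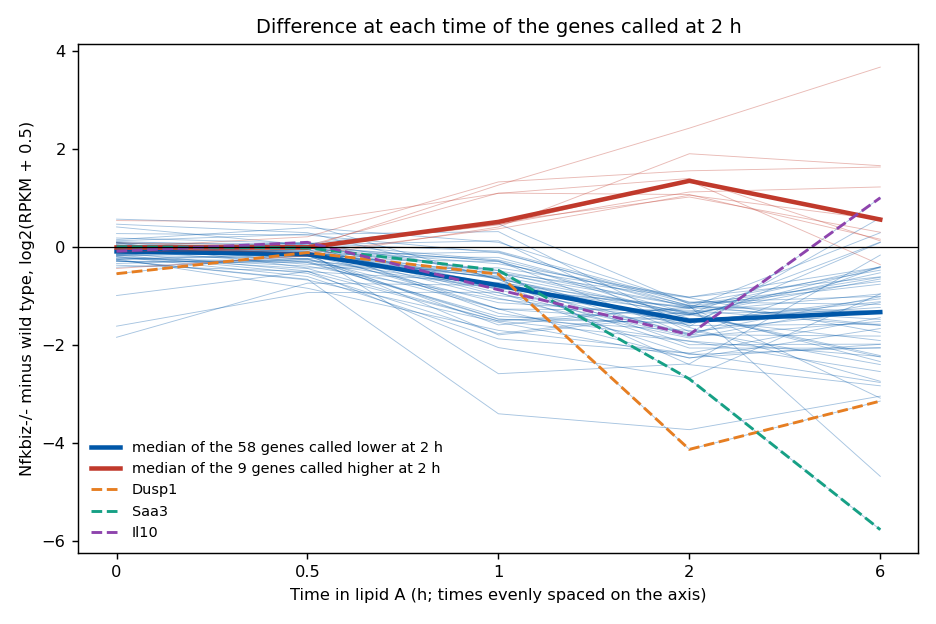
Difference between Nfkbiz-/- and wild type, log2(RPKM + 0.5), at 0, 0.5, 1, 2 and 6 h of lipid A (evenly spaced) for each of the 58 genes lower at 2 h (thin blue lines) and the 9 higher (thin red lines), with thick lines at the median and dashed lines for Dusp1, Saa3 and Il10. Both sets lie near 0 at 0 and 0.5 h, part from 1 h on, and Il10 lies above 0 at 6 h.

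IkBz is known to act with p50, so the 58 genes were read in Nfkb1-/- macrophages at 2 h, where 3 knockout and 3 wild-type libraries of another series were used. Of the 58, 10 were lower there too, which is 10 of the 19 genes lower in Nfkb1-/- among the 4885 fitted genes (0.389%). They were Rac2, Adamts4, Batf, Mapkbp1, Micall2, Riox2, 6530402F18Rik, Pwp1, Slc25a10 and Fcer1g. The 58 genes had a median of -0.79 in Nfkb1-/-, against -0.10 over all fitted genes, and 49 of them lay below 0 (84.5%, against 71.5% of fitted genes). Rac2 had 0.626, 1.3 and 1.64 RPKM in Nfkb1-/- against 6.94, 6.09 and 8.70 RPKM in wild type of that series. Rac2, Adamts4 and Batf, which are among the 10, were also among the larger falls in Nfkbiz-/- (-2.67, -2.38 and -2.26). Dusp1 and Lrrc25, which fell furthest in Nfkbiz-/-, were not among the 10. Lrrc25 had 4.13, 8.31 and 12.1 RPKM in Nfkb1-/- against 6.39, 8.27 and 9.62 RPKM in wild type (-0.08). Dusp1 had 1.68, 6.48 and 7.78 RPKM in Nfkb1-/- against 3.34, 7.87 and 9.58 RPKM in wild type (-0.45). The 2 knockout effects were tested against each other. Here further below or above means a lower or higher difference, whichever side of wild type the gene lay on. No gene was further below in Nfkbiz-/- than in Nfkb1-/- (13 at an unadjusted p from limma under 0.05 and 2-fold). Further above were 2 (0.0409%, 17 unadjusted), Tnfsf4 and the transcription factor gene Batf3. With the replicate number as a term within each series 6 were further below and 7 further above, and with the Nfkbiz and Nfkb1 series alone in the fit 3 and 7. Without the 10 Nfkbid libraries numbered 1, which entered the shared estimate of the spread, 4 were further below and 7 further above. Those 4 were Lrrc25 (difference of the effects -3.64 ± 0.54; adjusted p from limma 5.7e-05), Dusp1 (-3.67 ± 0.86; adjusted p 0.0356), Cpd (-2.30 ± 0.50) and Xylt2 (-2.06 ± 0.47). The 7 were Gpr132, C3, Tnfsf4, Vcam1, Batf3, Zfp961 and Tnni3. C3 lay below wild type in Nfkbiz-/- (-0.25). In Nfkb1-/- C3 had 1.35, 2.91 and 3.40 RPKM against 22.9, 19.6 and 25.8 RPKM in wild type. Xylt2, of the 4, had 27.4, 33.5 and 34.9 RPKM in Nfkb1-/- against 20.3, 15.3 and 17.1 RPKM in wild type. The fit without those Nfkbid libraries was added after the data were seen. With 1 library left out, none was further above without Nfkbiz-/- replicate 1 or 2, wild-type replicate 1 of the Nfkbiz series, Nfkb1-/- replicate 1 or wild-type replicate 3 of the Nfkb1 series, and 1 was without wild-type replicate 2 of the Nfkbiz series or wild-type replicate 1 or 2 of the Nfkb1 series.

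Tnfsf4 had a difference of 0.04 in Nfkb1-/-, so that the 2 effects differed by 2.39 ± 0.50 (adjusted p from limma 0.0212). Batf3 had 1.12 and 1.18 RPKM in Nfkbiz-/- against 0.445 and 0.622 RPKM in wild type (0.68 ± 0.11), under the 2-fold bound, and lay at -0.68 in Nfkb1-/- (difference of the effects 1.36 ± 0.26; adjusted p 0.0117). None of the 58 was called in Bcl3-/- (median -0.14, against -0.16 over all fitted genes) or in Nfkbid-/- (median 0.12, against -0.04). In neither knockout did limma call a fitted gene (unadjusted, and 2-fold, 7 lay below and 6 above in Bcl3-/-, and 0 and 0 in Nfkbid-/-). The standard error of the 58 genes had a median of 0.81 in Nfkbid-/- and 0.39 in Bcl3-/-, so a change of the size seen in many of them could miss the threshold. Without the Nfkbid libraries numbered 1 it was 0.40 in Nfkbid-/-. The median difference of the 58 was then 0.03, against 0.01 over all fitted genes, and again no gene was called (3 below and 2 above, unadjusted and 2-fold).

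Whole-cell RNA of macrophages overexpressing IkBz, with 1 library for each condition and therefore no test, was read for the same genes. Without stimulation Saa3 had 59.6 RPKM in cells overexpressing IkBz against 0.344 RPKM in control cells, and Lcn2 had 31.2 RPKM against 1.5 RPKM. With 2 h of TNFa Saa3 had 45.7 RPKM in overexpressing cells against 26.8 RPKM in control cells, and Lcn2 35.03 RPKM against 4.36 RPKM. With 2 h of lipid A Saa3 had 151 RPKM in overexpressing cells against 173 RPKM in control cells, and Lcn2 42.4 RPKM against 15.5 RPKM. Most of the genes lay within 2-fold of control. The genes counted reached 1 RPKM in one of these libraries or in separate mRNA libraries of cells given lipid A or TNFa. Hist2h4 and Mir34a reached it in the mRNA libraries alone. Of 57 such lower genes, 7 lay 2-fold or more above control without stimulation (12.3%, against 1.68% of all fitted genes) and 2 lay 2-fold or more below. Among the 7 was Mirlet7i, at 1.57 RPKM in overexpressing cells against 0.43 RPKM in control cells. With TNFa 2 lay above (3.51%, against 1.11%) and 5 below, and with lipid A 1 lay above (1.75%, against 1.08%) and 6 below, with a median of -0.08 on the log2 scale. Of 4704 fitted genes that passed the same filter, 62 lay 2-fold or more below control without stimulation, 80 with TNFa and 94 with lipid A. In each condition the share below control was thus larger among the 57 lower genes. With TNFa Ccl7 had 66.3 RPKM in overexpressing cells against 362 RPKM in control cells, and Ccl2 179 RPKM against 713 RPKM. Dusp1 had 24.7 RPKM with TNFa in overexpressing cells against 19.0 RPKM in control cells. The 13 lower induced genes all had more RNA with lipid A than with TNFa in control cells, with a median of 2.67 on the log2 scale, and so did 88 of 90 induced genes that were not lower, with a median of 2.27.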

How the data were processed

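Chromatin-associated RNA was isolated by cell fractionation and sequenced with a stranded kit, per the labels. The authors deposited 1 table of RPKM values for 15196 genes and 136 libraries. HISAT2, SAMtools and build mm9 are named in the submitters' processing notes, without versions, and the counting rule is not given in the sources used here. Each value was divided by the length of the gene with its introns: all values worth up to 30 reads were within 0.02 of a whole number of reads once multiplied by the span and the depth. Ddx3y and Kdm5d kept values of at least 0.00113 and 0.000623 RPKM in the libraries numbered 1, so a count of 1 may stand for no read. Whether other small counts are raised too was not tested. Differences of long genes therefore follow intron reads, and overlapping genes share reads.

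Values were analysed as log2(RPKM + 0.5) with limma 3.58.1 in R 4.3.3 (10 means for the 20 libraries of the Nfkbiz series, eBayes with a trend), over 4885 genes with at least 1 RPKM in 2 or more libraries. Genes were called at an adjusted p (Benjamini-Hochberg) under 0.05 and at least 2-fold. The median residual SD was 0.19 with 10 residual degrees of freedom. Effects in Nfkbiz-/- and Nfkb1-/- were compared in 1 fit of 100 libraries with 40 means. Induced genes came from 40 wild-type libraries of the other 3 series (5-fold or more, adjusted p under 0.05, at least 3 RPKM). These included the Nfkbid wild-type libraries numbered 1, and the set was not drawn without them. The share of true changes that these thresholds recover, where same-numbered libraries deviate together as described below, was not tested.

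Replicate numbers are given by the labels, which do not say that equal numbers were handled together. Same-numbered libraries deviated together (correlations of 0.48, 0.73, 0.50, 0.45 and 0.54 at 0, 0.5, 1, 2 and 6 h) and matched in Y-linked RNA. The main fit had no term for the number, so its standard errors and adjusted p leave this pairing out. Results with the number as a term are given where they change a call or a count by over 1.5 times.

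Named genes were the 15 largest falls and the higher genes without overlap of the genotypes, called genes of the lists, up to 3 abundant uncalled genes of those lists, the NF-kB family, and the 5 most abundant called genes. Others were named after their values were seen. The genes and lists were chosen with earlier results of these data known. Alternatives were the pseudocount, the filter, centring, the replicate term, the libraries in the fit and each library left out; a fit without the 10 Nfkbid libraries numbered 1 was added after the data were seen. Some genes and 1 gene list are not reported here.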

Additional observations from a re-analysis of the deposited data

Results flagged for a closer look

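Some results differ between times or knockouts by a test of the difference itself, on the log2(RPKM + 0.5) scale in limma. In the 2 h difference minus that at 0 h these genes were further below wild type: Dusp1 (-3.59), Lrrc25 (-3.46), Tnfrsf1b (-2.87), Saa3 (-2.70), Pltp (-2.56, the same value as Rac2, -2.56), Adamts4 (-2.39), Batf (-2.21), Fcgr2b (-1.90), Mapkbp1 (-1.80), Cyth4 (-1.70), Il10 (-1.70), Igf2bp2 (-1.65), Cpd (-1.55), Eif4g2 (-1.39), 6530402F18Rik (-1.38), Lipg (-1.35), Ifitm2 (-1.32), Riox2 (-1.30), Rnf149 (-1.25), Lcn2 (-1.19), Fcgr4 (-1.11), Gsr (-1.11) and Tnfsf15 (-1.03). Tnfsf4 (2.44), Mir1907 (2.34), Cst7 (1.17) and Actn1 (1.12) were further above it.

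In the 2 h difference minus that at 6 h, Il10 (-2.80), Adamts4 (-2.22), Mirlet7i (-2.22), Rac2 (-1.72), Igf2bp2 (-1.66) and Lipg (-1.47) lay further below wild type at 2 h. Lcn2 (3.48), Saa3 (3.08), Xylt2 (1.87) and Tnfsf9 (1.55) lay further below it at 6 h. Mirlet7i rests on 1 and 2 reads in Nfkbiz-/- against 7 and 7 reads in wild type. Between knockouts, Tnfsf4 (2.39) and Batf3 (1.36) lay higher in Nfkbiz-/- relative to wild type than in Nfkb1-/-.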

How the results depend on the processing

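The counts depended on the spread used. Against 58 lower and 9 higher genes, 22 and 2 were called from the 4 libraries at 2 h alone, and 6 and 1 with all 4 knockout series in 1 fit, whose median residual SD was 0.52 against 0.19. Of those 6, 5 were among the 58, and Dusp1 (adjusted p 0.0925) and Lrrc25 (0.429) were not. Without the 10 Nfkbid libraries numbered 1, a choice made after seeing the data, that fit had an SD of 0.33 and called 26 lower and 4 higher genes (25 and 4 of them among the 58 and 9), 4 and 1 further below and above at 2 h than at 0 h, and 4 and 7 below and above Nfkb1-/-. Higher genes numbered 16 with a pseudocount of 0.1 and 16 with centred libraries. Leaving out 1 library gave 31 to 63 lower and 3 to 12 higher genes. Genes further below wild type at 2 h than at 0 h (24) numbered 0 in the fit of all series and 11 to 20 with 1 library left out; those further above (4) numbered 1 with a pseudocount of 0.1, 1 with no filter, 0 in the fit of all series and 0 to 1 with 1 library left out. Genes higher than in Nfkb1-/- (2) numbered 0 with a pseudocount of 0.1, 1 with a pseudocount of 1, 1 with a filter of 3 RPKM, 0 with centring, 7 with the 2 series alone and 0 to 2 with 1 library left out; genes lower than in Nfkb1-/- (0) numbered 3 with the 2 series alone and 0 with any library left out. Induced genes (104) numbered 163 with centring. The cause of the other changes was not tested.

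With the replicate number as a block over the series 84 genes were lower and 13 higher, including all 58 and all 9, and with the block at each time 85 and 14, including 57 and 9. The block gave 50 and 8 genes, or at each time 55 and 13, whose 2 h difference was further below or above that at 0 h, and 6 and 7 genes whose effect lay below or above that of Nfkb1-/-. Among the named genes Ccl4, Il1b, Rmrp and, at each time, Ptgs2 gained a call under the block, Snhg1 lost it at each time, and no other call changed. Over all alternatives 36 named called genes had 535 values, of which 144 fell short of the threshold and 0 changed sign. Few reads limit Lcn2, Mirlet7i, Mir34a, Snord89, Hist2h4 and Mir1907.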
